A study of Mus musculus with 3 samples.

Results

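Liver neutrophils were chosen by their RNA from single-cell libraries of liver non-parenchymal cells (NPCs), through their own unique molecular identifiers (UMIs, counts of single RNA molecules). A cell was kept with 200 to 4000 detected genes and at most 25% mitochondrial UMIs. It was called a neutrophil with at least 10 UMIs of S100a8 and S100a9 together, at least 2 UMIs of Retnlg, Cxcr2, Csf3r, Mmp9 and Il1r2 together, at most 2 UMIs of the Kupffer cell (KC) genes Clec4f and Vsig4, and no UMI of Cd3e, Cd79a or Ptprb, which mark T cells, B cells and endothelial cells. This gave 3084 neutrophils among 42971 kept cells. Of these, 2786 came from the NCD library and 298 from the HFHC pool.

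Neutrophils are short-lived granulocytes that leave the bone marrow after they have filled their granules. Granule proteins are made in order, so that the RNA in a cell reflects how far it has matured. Those of primary granules come first (Mpo, Elane), those of secondary granules next (Ngp, Camp, Ltf, Lcn2), and those of tertiary granules last (Mmp9). Mature cells carry the chemokine receptor Cxcr2 and the growth factor receptor Csf3r, and release S100a8 and S100a9, which form calprotectin. In the steatotic liver they are known as a source of IL-1β, of chemokines and of proteases.

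What is called the NCD library here holds, by the mapping used, cells of wild-type (WT) C57BL/6J mice on a normal chow diet (NCD). It was identified by elimination, since its sample is titled MCD, which is also the short name of a diet used elsewhere in the study, its table is named WT and its header names the library APAP0h. The HFHC pool holds WT mice and Chil1-/- mice together, the latter carrying a constitutive knockout of the gene for Chi3l1, and both were fed a high-fat, high-cholesterol (HFHC) diet. No genotype was assigned to single cells here, and the tag library of the pool, which would carry it, was not analysed here. The labels call the cells parenchymal, whereas the methods describe NPCs, made by collagenase perfusion, a density gradient and lysis of red cells. Nothing in the sources used here says how many mice were pooled. With 1 library for each diet, diet, genotype, capture and library cannot be told apart, no test between the libraries was possible and no p-value is given. All intervals are exact 95% intervals that cover counting error only.

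Sequencing gave 53720863 UMIs over 30734 NCD cells and 71981673 UMIs over 21601 cells of the pool. An NCD neutrophil carried 1029 UMIs at the median (430 to 17047) and a neutrophil of the pool 2130 UMIs (865 to 10885), and the medians of detected genes were 577 and 928.5. Their median mitochondrial share was 0.819% and 0.744%, against 5.96% and 1.11% over all kept cells, and its 95th percentile in neutrophils was 6.28% and 12.61%. In total they held 3257255 and 756428 UMIs. The tables shared 756 cell barcodes, 0 of them between neutrophils. With the limits on genes and mitochondrial share themselves excluded, the filter left 23312 kept cells in the NCD library, and the study states the same number for its NCD livers. The same limits left 19599 cells in the pool, which holds both genotypes, and the study states fewer for its WT and Chil1-/- HFHC livers together.

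Among kept cells, neutrophils were 11.93% (11.52 to 12.36) on NCD and 1.518% (1.352 to 1.699) in the pool. Set against other cells taken by their own marker UMIs, the NCD library held 6.95 neutrophils for each classical monocyte, 1.07 for each T cell, 2.23 for each B cell and 1.21 for each KC. In the pool these ratios were 0.514, 0.117, 0.350 and 0.879. The ratio to KCs differed least of the 4, and there were 2301 and 339 KCs. A share of captured cells also depends on the isolation, and its part was not tested. With every kept cell thinned to 500 UMIs before the rule was applied, an alternative chosen after seeing the data, the shares were 13% and 1.273%.

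Values just inside and just outside the rule are given once, as a description and with no thinning. In the NCD library, 92 neutrophils had 10 to 12 UMIs of S100a8 and S100a9, and Cxcr2 was found in 92.4% of them. A further 83 cells had 7 to 9 such UMIs and met every other criterion, and Cxcr2 was found in 89.2% of them. In the pool 8 cells lay inside and 4 outside on the same count. After the limit on S100a8 and S100a9, the limit on the 5 receptor and protease genes took out 12 and 3 cells, the limit on KC genes 115 and 5, and the limit on lymphoid and endothelial genes 354 and 39.

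The label was checked against the marker genes, which the rule itself used, so that their levels describe the cells and support nothing. Levels are UMIs summed over the neutrophils of a library and scaled to a total common to both libraries (CPM). S100a8 stood at 24880 CPM (24710 to 25050) in the NCD library and at 18420 CPM (18110 to 18730) in the pool. S100a9 stood at 25580 and 16980 CPM. Both genes were thus high in both libraries, and far above the other kept cells, where S100a8 stood at 380.2 and 43.7 CPM. Cxcr2, a receptor for CXC chemokines, stood at 4314 CPM (4243 to 4386) and 2744 CPM (2628 to 2865). Csf3r, the receptor for G-CSF, was the marker with the higher level in the pool, at 2389 CPM (2336 to 2442) and 3215 CPM (3089 to 3345). Retnlg, a resistin-like protein of neutrophils, differed most among the markers. It stood at 14990 CPM (14860 to 15130) in the NCD library and at 3881 CPM (3742 to 4024) in the pool, which is 3.86-fold (3.72 to 4.01) lower in the pool.

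**Figure D1:**
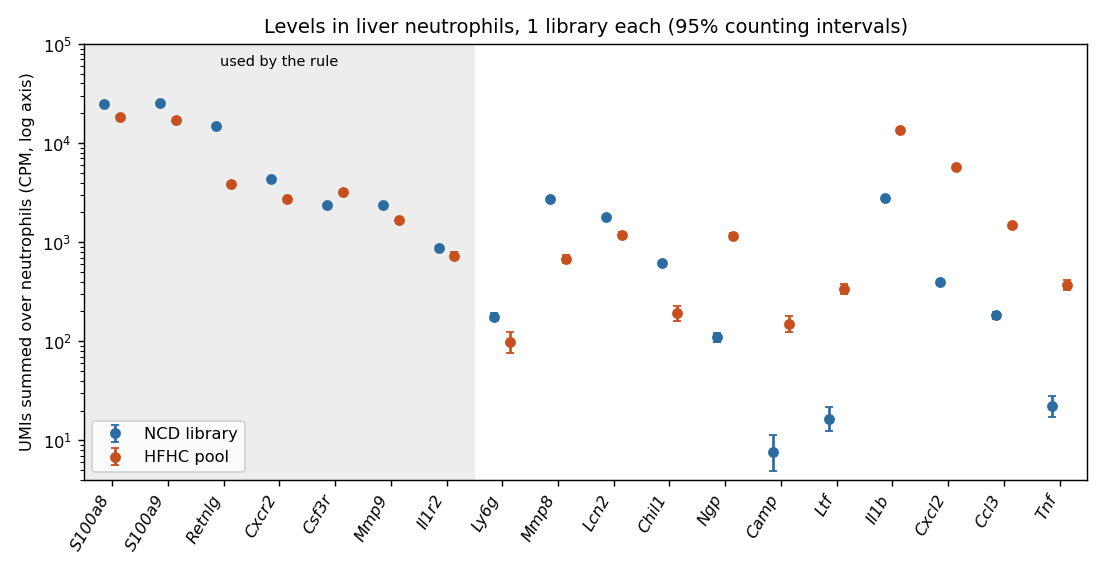
Level of each gene in liver neutrophils as UMIs summed over cells (CPM, log axis), NCD library in blue and HFHC pool in orange, with exact 95% counting intervals (bars, often smaller than the points). Shaded genes were used to choose the cells; Mmp8, Chil1 and Retnlg are lower in the pool, and Il1b, Cxcl2, Ccl3 and Tnf are higher. Ngp, Camp and Ltf are also higher in the pool, but 4 cells hold nearly all of their UMIs.

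Genes that the rule did not use stood among those that lead these cells over the others, given as a description. Ranked by the ratio of neutrophils over all other kept cells of the NCD library, among 3824 genes, the 10 leading genes were Lhx1, Stfa1, Gm5483, Retnlg, S100a8, S100a9, Chil1, Mrgpra2b, Ly6g and Mmp8. Stfa1 and the related Gm5483 are of the stefin A family of protease inhibitors, Mrgpra2b is a G protein-coupled receptor, and Ly6g is the surface antigen used to sort mouse neutrophils. Ly6g RNA was sparse, at 177.8 CPM (163.6 to 192.8) in the NCD library and 97.8 CPM (76.8 to 122.8) in the pool. With no thinning it was found in 12.7% and 8.05% of neutrophils, although those of the pool held more UMIs each. In the pool 1 cell held 33.8% of the Ly6g UMIs. In the pool the 10 leading genes among 1369 were Ngp, Camp, Ltf, S100a9, Retnlg, S100a8, Stfa2l1, Gm5483, Amer2 and Gm20406.

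Between the libraries, a gene was called higher or lower in the pool when its log2 ratio of CPM, with 1 UMI added, was at least 1 in size. Ratios were taken over the 4378 genes with at least 100 UMIs in the neutrophils of both libraries together. Of these, 349 genes (7.97%) were higher and 189 genes (4.32%) were lower in the pool, and the median ratio was 0.05. With cells thinned to 500 UMIs, 136 (6.05%) and 130 (5.78%) of 2249 genes were higher and lower. The same rule called 4.65% and 3.29% of genes in classical monocytes, 4.93% and 3.03% in B cells, 6.49% and 2.9% in T cells and 3.3% and 3.82% in KCs.

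Genes listed here under tertiary granules were lower in the pool or between the limits. Mmp8 and Cfp of this list are also known as secondary granule proteins, so that the contrast with the secondary list depends on the listing. Of 7 genes measured, 3 were lower and 0 higher, with a median log2 ratio of −0.52. Of all genes, 4.32% were lower. Mmp8, neutrophil collagenase, stood at 2752 CPM (2696 to 2810) in the NCD library and at 675.5 CPM (618.2 to 736.7) in the pool, 4.07-fold (3.73 to 4.46) lower. With every cell thinned to 500 UMIs, which sets the libraries to 1 depth, Mmp8 was found in 54.5% (52.6 to 56.4) of NCD neutrophils and 22.5% (17.9 to 27.7) of those of the pool. The share in B cells, which should lack it, was 0.240% and 0. Adam8, a membrane protease, was 2.92-fold (2.6 to 3.29) lower, at 1189 and 407.2 CPM. Cfp, properdin of the alternative complement pathway, was 2.3-fold (1.9 to 2.81) lower, but its log2 ratio was −0.57 with cells thinned to 500 UMIs. Mmp9, gelatinase B and part of the rule, had a log2 ratio of −0.52, and Itgam and Fcer1g had −0.24 and −0.28, and Arg1, arginase 1, had 0.75. The same group had medians of −0.11 over 6 genes in classical monocytes, −0.55 over 6 in KCs, −0.46 over 4 in B cells and −0.75 over 6 in T cells, and 2 of its genes were lower in KCs and 1 in B cells.

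Genes listed here under secondary granules, which leave out Mmp8 and Cfp, divided. Of 11 genes, 4 were higher and 0 lower, where 7.97% and 4.32% of all genes were, with a median of 0.44, and the other 7 ranged from −0.79 (Pglyrp1) to 0.44 (Cybb). Ngp, an abundant granule protein of the cathelicidin family, stood at 109.3 CPM (98.2 to 121.3) in the NCD library and at 1153 CPM (1078 to 1232) in the pool. Camp, the cathelicidin itself, stood at 7.68 CPM (4.97 to 11.3) and 149.4 CPM (123.1 to 179.6). Ltf, lactoferrin, stood at 16.6 CPM (12.5 to 21.6) and 337.1 CPM (297 to 381.1). The 4 genes called were these 3 and Chil3, a chitinase-like protein of myeloid cells, at 18.1 and 182.4 CPM. Lcn2, lipocalin 2, went the other way, at 1797 and 1192 CPM, and Pglyrp1, a peptidoglycan recognition protein, had a log2 ratio of −0.79.

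The higher levels of Ngp, Camp and Ltf in the pool came from 4 cells. These held 575, 386, 255 and 20 UMIs of the 3 genes, and together all 872 Ngp UMIs, 112 of 113 Camp UMIs and 252 of 255 Ltf UMIs of the pool. None of them had a UMI of Il1b, Cxcl2 or Chil1, and none had a UMI of Mpo, Elane, Mki67 or Top2a, the last 2 being genes of dividing cells. Their Lcn2 counts were 108, 83, 119 and 3 UMIs and their Chil3 counts 84, 22, 10 and 1. In the same order the cells had 1781, 1543, 1572 and 597 detected genes. In the NCD library 2 cells held 10 or more such UMIs, 226 and 16, and a further 121 cells held 1 to 9, whereas in the pool only 3 cells held 1 to 9.

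Without the cells that held 10 or more of these UMIs, an alternative chosen after seeing the data, 2784 and 294 neutrophils remained. Ngp then stood at 56.9 CPM (49.0 to 65.7) in the NCD library and had 0 UMIs in the pool. A count of 0 was taken to allow up to 3 UMIs, or 4.06 CPM, and at this floor Ngp was 14-fold lower in the pool. The exact interval of the pool reached 4.99 CPM and that of the log2 ratio −3.50, a smaller difference. The cells were also left out by their content of the very genes compared. Camp was left with 3 and 1 UMIs and Ltf with 5 and 3, too few for a ratio. Lcn2 was then lower in the pool by a log2 ratio of −1.16 (−1.28 to −1.04) and Ly6g by −2.26 (−2.94 to −1.75), and Chil3 was at 14.4 and 28.4 CPM. Mmp8 moved to −2.31. The direction of Ngp, Camp and Ltf between the libraries is thus that of a few cells. The other cells of both libraries carried almost no Camp (0.92 and 1.35 CPM) or Ltf (1.54 and 4.06 CPM), and those of the pool no Ngp.

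**Figure D2:**
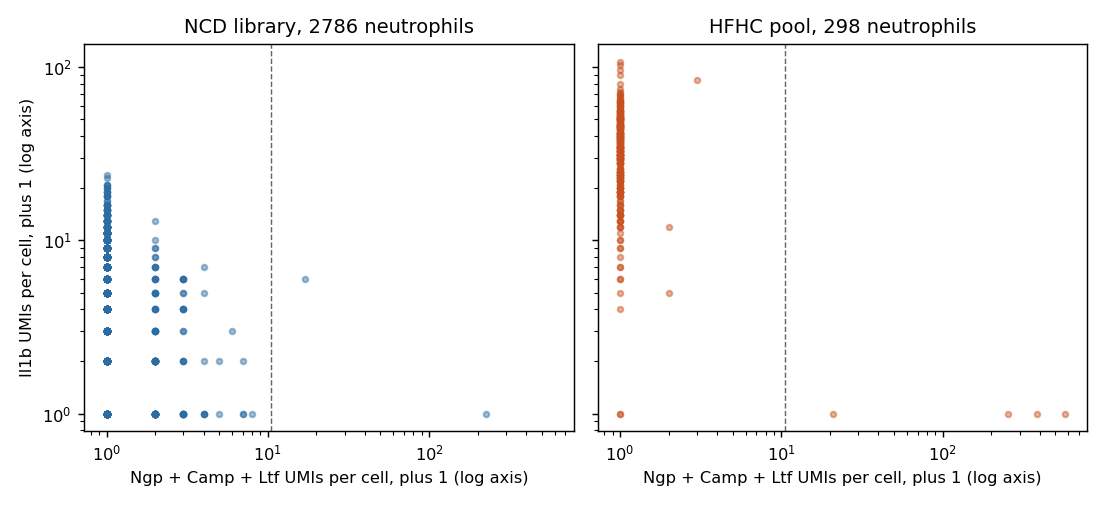
Each point is 1 neutrophil: UMIs of Ngp, Camp and Ltf together (x) against UMIs of Il1b (y), both plus 1 on log axes, in the NCD library (left) and the HFHC pool (right). The 4 cells of the pool to the right of the dashed line hold 20 to 575 UMIs of the 3 genes and no Il1b UMI, and nearly all other cells of the pool hold none of the 3.

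Of 6 primary granule genes, none reached 100 UMIs. Together they had 56 UMIs, 17.19 CPM (12.99 to 22.33), in the NCD library and 28 UMIs, 37.0 CPM (24.6 to 53.5), in the pool, with at most 7 and 9 UMIs in a cell. Mpo, Ctsg and Ms4a3 had no UMI in either library, which allows up to 0.921 CPM in the NCD library and 3.97 CPM in the pool, Elane had 2 UMIs in each, and Serpinb1a, a protease inhibitor, had 47 and 23. Thinned to 500 UMIs, 5 NCD neutrophils (0.180%) and 4 of the pool (1.34%) held 3 or more UMIs of Ngp, Camp and Ltf. A further 61 NCD cells (2.19%) and 0 cells of the pool held 1 or 2. The 61 cells had 19.7 Retnlg and 3.25 Mmp8 UMIs per cell, against 7.22 and 1.27 in the 2717 NCD cells with none. The genes that ranked highest over cells with none in the 5 NCD cells, Syngr2 first among them, rested on 2 or 3 UMIs each, and among the lowest were Zfp36 (1 UMI), Ptprc and Marcks (0 UMIs).

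The 16 genes of cell division summed to 2022 and 1274 CPM, against 1719 and 1325 CPM in the other kept cells. Hmgb2, a chromatin protein that is not limited to dividing cells, made up 1554 and 893.7 CPM of this. Of the 16 genes, 5 reached 100 UMIs, and of these 0 were higher and 1 lower, beside 7.97% and 4.32% of all genes. The lower one was Tuba1b, at −1.04, and at −0.84 with a minimum of 20 S100a8 and S100a9 UMIs. The top cell of the NCD library held 298 of the 6585 UMIs of the 16 genes, and that of the pool 28 of 964. Mki67 had 39 UMIs in the 2786 NCD cells and 4 in the 298 cells of the pool, and Top2a had 51 and 11.

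Chil1, the mouse gene for Chi3l1, is a chitinase-like lectin of secondary granules that binds carbohydrate and cuts none. In the NCD library 2005 of the 2443 Chil1 UMIs of kept cells, 82.1% (80.5 to 83.6), were in neutrophils, which held 6.58% of all UMIs of these cells. In the pool 145 of 232 UMIs, 62.5% (55.9 to 68.8), were in neutrophils, which held 1.45% of all UMIs. Neutrophils were thus the main holders of Chil1 RNA in both libraries. Of the Chil1 UMIs outside, 345 of 438 and 33 of 87 were in cells that had at least 10 UMIs of S100a8 and S100a9 and missed another criterion. KCs held 14 Chil1 UMIs in the NCD library (1.22 CPM) and 0 in the pool, where 0 allows up to 0.948 CPM. The choice of KCs left out cells with a UMI of Retnlg or Cxcr2 or at least 10 UMIs of S100a8 and S100a9. Low Chil1 in KCs thus follows in part from that choice. Classical monocytes held 2 and 0.

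The Chil1 level of neutrophils was 615.5 CPM (588.9 to 643.1) in the NCD library and 191.7 CPM (161.8 to 225.6) in the pool, 3.21-fold (2.71 to 3.83) lower. After thinning to 500 UMIs, 23.2% (21.6 to 24.8) of NCD neutrophils and 7.38% (4.684 to 10.96) of those of the pool had a Chil1 UMI. Both shares were above that of B cells, at 0 and 0.118%. The 2 readings went the same way, but 1 cell with 23 UMIs held 15.9% of the Chil1 UMIs of the pool, against 8 UMIs and 0.399% for the top NCD cell. Without its top cell the pool stood at 161.3 CPM. The pool mixes genotypes, so that its level is a mean over WT and Chil1-/- neutrophils in unknown parts, and diet and genotype cannot be told apart in it.

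Within the NCD library, neutrophils with a Chil1 UMI had more granule and alarmin RNA. At 500 UMIs per cell the 645 cells with a Chil1 UMI held 10.1 Retnlg UMIs per cell (9.86 to 10.4), against 6.74 (6.63 to 6.85) in the 2138 cells without. Mmp8 was at 1.90 and 1.15 UMIs, Lcn2 at 1.28 and 0.757, and S100a8 at 15.8 and 12.3. Cxcr2 was at 2.29 UMIs in both, and Il1b at 1.35 (1.26 to 1.44) and 1.58 (1.53 to 1.64). In the pool 22 cells had a Chil1 UMI, and their Retnlg, at 2.54 UMIs (1.92 to 3.31), overlapped that of the 276 cells without, at 2.01 (1.85 to 2.19). Cxcl2 was higher in the cells of the pool with a Chil1 UMI, at 4.82 (3.95 to 5.83) against 2.71 (2.52 to 2.91). On NCD it stood at 0.177 (0.146 to 0.212) and 0.228 (0.208 to 0.249). In the pool a split of cells by Chil1 cannot be told apart from genotype, and the intervals leave out the spread between cells. Of the other chitinase-like genes, Chil4, Chil6, Chia1 and Chit1 had no UMI in either library, and Chil3 stood at the 18.1 and 182.4 CPM given above.

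Most genes of inflammatory cytokines and chemokines that could be measured were higher in the pool. Of 18 listed genes, 12 were measured, and of these 10 were higher and 0 lower (7.97% and 4.32% of all genes), with a median log2 ratio of 2.16 against 0.05 for all genes. Il1b, the precursor of IL-1β, stood at 2779 CPM (2722 to 2837) in the NCD library and at 13520 CPM (13260 to 13790) in the pool, 4.87-fold (4.73 to 5.01) higher. At 500 UMIs per cell, 63.7% of NCD neutrophils and 96.0% of those of the pool had an Il1b UMI, with medians of 1 and 7.5 UMIs. Among B cells at the same depth the shares were 1.20% and 0.823%. Cxcl2, a chemokine that draws neutrophils through Cxcr2, was 14.6-fold (13.7 to 15.6) higher, at 395.1 and 5778 CPM. It was found in 12.4% (11.2 to 13.7) and 58.7% (52.9 to 64.4) of thinned cells, against 0.240% and 1.06% of B cells. Ccl3 and Ccl4, ligands of CC chemokine receptors, were 8.14-fold (7.36 to 9.01) and 15.1-fold (12.9 to 17.8) higher. Tnf was at 22.1 and 370.2 CPM. Cxcl10 was at 30.4 and 458.7 CPM, but with no thinning 0.646% and 6.71% of neutrophils held a UMI of it, those of the pool being deeper. For Cxcl10, 1 cell held 41.4% of the UMIs in the NCD library and 1 cell 23.0% in the pool. Without that cell in each it stood at 17.8 and 353 CPM, and its log2 ratio of 3.91 was 2.80 with a mitochondrial limit of 10%. Osm, Il1rn, Vegfa and Tgfb1 had log2 ratios of 1.52, 1.42, 2.04 and 1.70, that of Il1rn being 0.89 with thinned cells. The 2 genes between the limits were Csf1, at 0.96, and Ccl6, at −0.82.

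Targets of NF-κB, most of them feedback regulators, had a like pattern. Of 13 genes measured, 10 were higher and 0 lower, against 7.97% and 4.32% of all genes, with a median of 1.86. Nfkbia, the inhibitor that holds NF-κB in the cytoplasm, was 4.44-fold (4.14 to 4.76) higher, at 475.9 and 2113 CPM. Tnfaip3, the deubiquitinase A20, was 8.47-fold (6.51 to 11.1) higher, and the kinase gene Pim1 4.33-fold (4.14 to 4.52). Icam1, Ier3, Nfkbiz and Sod2 had log2 ratios of 2.73, 2.98, 2.74 and 1.86. In classical monocytes this group had a median of 0.61, in KCs of 0.24, in B cells of 0.11 and in T cells of 0.35. The cytokine group had 1.62, 1.31, 0.35 and 1.15 in the same order.

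Most of the monocyte markers measured in neutrophils were also higher in the pool. Of 8 measured, 6 were higher in the pool and 0 lower (7.97% and 4.32% of all genes), with a median of 1.20. F13a1, a transglutaminase subunit, stood at 11.97 and 99.15 CPM, Ccr2 at 64.8 and 145.4 CPM, Fn1, fibronectin, at 43.0 and 100.5 CPM, and Ms4a6c and Plac8 had log2 ratios of 1.31 and 1.08. The sixth was Chil3, most of whose UMIs in the pool lay in the 4 cells with Ngp, Camp and Ltf, which held no Il1b or Cxcl2 UMI, and without them it stood at 14.4 and 28.4 CPM, with too few UMIs for a ratio. Ly6c2, an antigen of classical monocytes, stood at 522.8 and 316 CPM and Csf1r, the receptor for M-CSF, at 319.6 and 382.1 CPM. The 10 listed genes summed to 1182 and 1704 CPM, against 3236 and 2342 CPM in the other kept cells, and none was at 0. With no thinning, at least 3 UMIs of them were found in 10.9% and 22.5% of neutrophils, and such shares follow the depth, which was higher in the pool. A neutrophil held 0 and 1 UMIs of the 10 genes at the median. The top cell of the NCD library held 216 of 3851 such UMIs, and that of the pool 189 of 1289. The part of these monocyte genes in the cytokine and NF-κB levels was not tested.

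**Figure D3:**
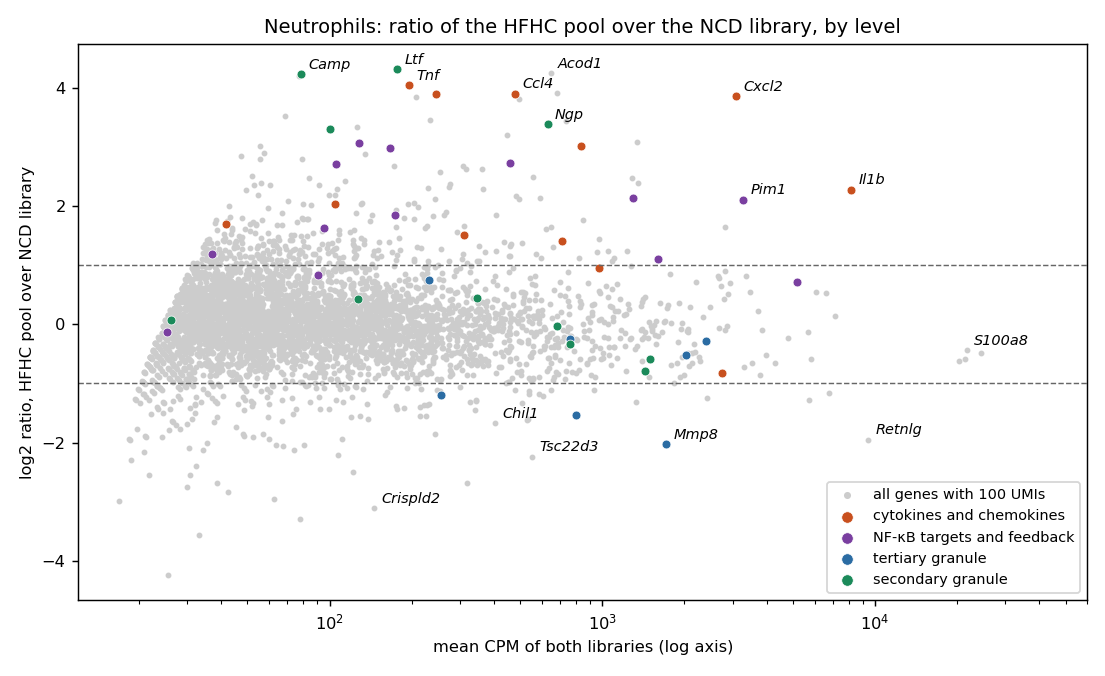
Log2 ratio in neutrophils, HFHC pool over NCD (y), against the mean level of both (CPM, log axis) for the 4378 genes measured, with the called limits of 1 and −1 as dashed lines. Cytokine and chemokine genes (orange) and NF-κB targets (purple) lie mostly above 1, and genes listed under tertiary granules (blue) mostly below 0. Ngp, Camp and Ltf (green, top) rest on 4 cells.

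Promoters are shown for a gene of each of these patterns: Cxcl2, high in the pool, Ngp, held by few cells, Mmp8, low in the pool, and Chil1. Each is the 250 bases upstream of the start site in RefSeq. Capitals mark the κB motif, GGG, then 2 bases of any kind, then TTTCC, and the C/EBP motif TTGCNNAA, where N is any base, both on either strand, forms that were chosen after their matches had been seen.
Cxcl2 (GRCm38.p6, chr5:90903649-90903898, + strand): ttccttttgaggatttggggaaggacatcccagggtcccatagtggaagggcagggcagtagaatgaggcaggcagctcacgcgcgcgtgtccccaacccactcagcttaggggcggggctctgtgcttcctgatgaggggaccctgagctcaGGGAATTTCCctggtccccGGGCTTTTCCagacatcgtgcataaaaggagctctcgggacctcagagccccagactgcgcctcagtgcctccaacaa
Ngp (GRCm38.p6, chr9:110419558-110419807, + strand): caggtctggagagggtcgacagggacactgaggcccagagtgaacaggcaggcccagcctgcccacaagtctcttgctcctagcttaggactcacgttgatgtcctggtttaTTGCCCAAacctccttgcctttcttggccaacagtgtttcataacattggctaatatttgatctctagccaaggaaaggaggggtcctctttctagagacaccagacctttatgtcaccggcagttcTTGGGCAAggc
Mmp8 (GRCm38.p6, chr9:7558179-7558428, + strand): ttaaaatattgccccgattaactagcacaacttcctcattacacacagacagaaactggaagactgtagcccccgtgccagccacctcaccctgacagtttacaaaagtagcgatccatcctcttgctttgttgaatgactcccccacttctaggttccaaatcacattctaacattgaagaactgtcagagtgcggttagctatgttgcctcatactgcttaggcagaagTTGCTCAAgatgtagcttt
Chil1 (GRCm38.p6, chr1:134181906-134182155, + strand): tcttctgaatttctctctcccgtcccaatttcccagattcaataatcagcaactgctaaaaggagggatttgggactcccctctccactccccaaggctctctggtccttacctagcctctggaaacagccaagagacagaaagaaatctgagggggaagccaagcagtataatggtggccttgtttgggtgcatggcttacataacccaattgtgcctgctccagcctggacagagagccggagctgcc
Cxcl2 held 2 κB matches, Ngp 2 and Mmp8 1 C/EBP match, and Chil1 neither. The κB form was found in 1.41% of all 32851 promoters in the table, in 11 of the 34 promoters (32.4%) of 27 listed cytokine and NF-κB genes and in 1 of the 14 (7.14%) of listed secondary and tertiary granule genes. The C/EBP form was found in 9.56% of all promoters, in 1 of the 34 (2.94%) and in 6 of the 14 (42.9%). Since these forms were picked with their matches in view, the shares are a description alone. A match is a run of letters and was not tested as a binding site.

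The 10 highest ratios, among genes with at least 10 UMIs in each library, were those of Ltf, Acod1, Camp, Vps37b, Tnf, Ccrl2, Ccl4, Cxcl10, Cxcl2 and Gnb2. Acod1, which makes itaconate in activated myeloid cells, stood at 64.2 CPM (55.8 to 73.5) in the NCD library and at 1229 CPM (1152 to 1311) in the pool, 19.2-fold (16.5 to 22.4) higher. Ccrl2, an atypical receptor that binds chemerin, was 15.3-fold (13.4 to 17.6) higher. Both were also higher in classical monocytes, with log2 ratios of 1.03 and 2.97. Gnb2, a G protein subunit, and Vps37b, a sorting protein, were higher in every other cell type measured too. Gnb2 had log2 ratios of 3.86 in neutrophils, 4.06 in classical monocytes, 3.66 in KCs, 3.98 in B cells and 4.07 in T cells.

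Other genes were higher in neutrophils and stayed under 1 in size in classical monocytes, B cells and T cells. The 10 highest of this kind were Gbp5, Icam1, Marcksl1, Decr2, Nfkbie, Pde4b, Gbp2, Nfkbia, Pim1 and Oat. Marcksl1, an actin-binding protein, had a log2 ratio of 2.39 (2.29 to 2.50), at 432.6 and 2275 CPM, against 0.27 in classical monocytes. Pde4b, which breaks down cyclic AMP, had 2.34 (2.11 to 2.57), against 0.79. Gbp2, an interferon-induced GTPase, had 2.31, with 19.4% of its UMIs in the pool from 1 cell. These differences between cell types were not tested.

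Immediate early and heat shock genes, which are known to rise while tissue is dissociated, were higher in the pool or between the limits. Of 23 genes measured in neutrophils, 11 were higher, 12 lay between the limits and 0 were lower, beside 7.97% and 4.32% of all genes higher and lower, with a median of 0.996. The same genes had medians of 1.23 in classical monocytes, 0.98 in KCs, 0.84 in B cells and 1.41 in T cells. Egr1 stood at 65.4 and 924.1 CPM and Nr4a1 at 122.8 and 1347 CPM, and Fos, at 2427 and 4278 CPM, had a log2 ratio of 0.82 in neutrophils and of 3.64 in T cells. The medians thus lay between 0.84 and 1.41 in the cell types measured, neutrophils among them. The part of dissociation in the cytokine levels was not tested. Of 24 genes of this list that are in neither the cytokine nor the NF-κB list, thinned neutrophils held 7 UMIs at the median on NCD and 12 in the pool. Among cells with 7 or fewer, Il1b was at 1.28 UMIs per cell (1.23 to 1.34) in 1540 NCD cells and at 5.62 (5.06 to 6.22) in 66 cells of the pool. Cxcl2 was at 0.180 and 3.77 UMIs. Among cells with 8 or more, Il1b was at 1.83 and 8.43 UMIs and Cxcl2 at 0.261 and 2.75.

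**Figure D4:**
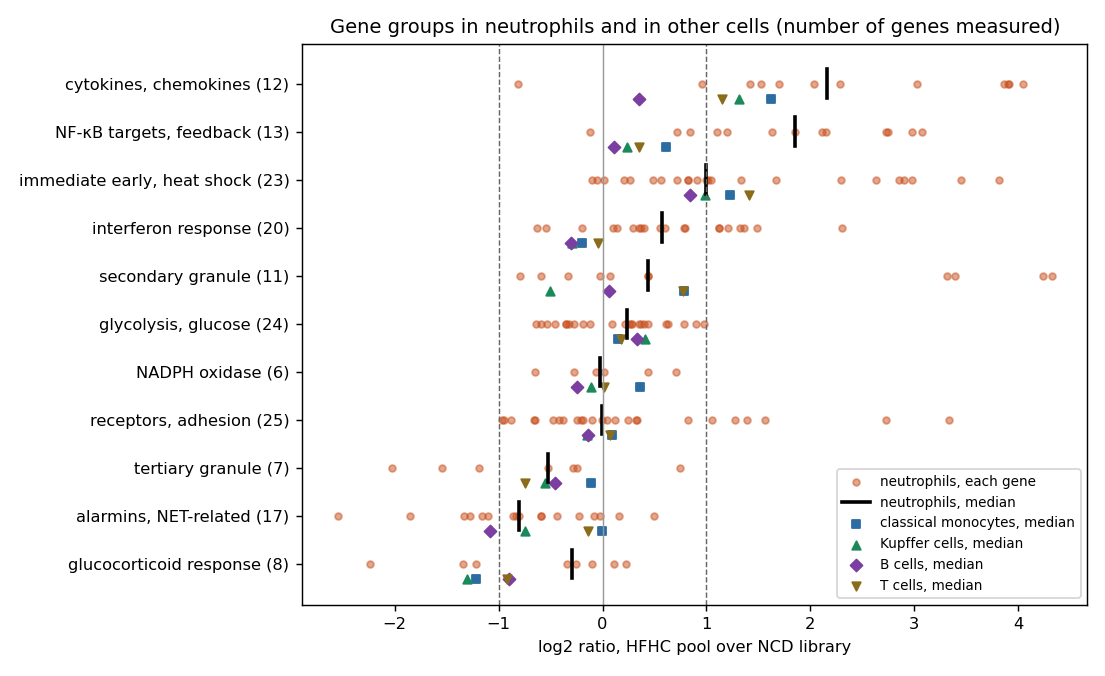
Log2 ratio, HFHC pool over NCD, for each gene of 11 groups in neutrophils (orange points), with the median of the group (black bar) and its median in classical monocytes, KCs, B cells and T cells (other symbols); the number of genes measured in neutrophils is in brackets. Cytokines and NF-κB targets have medians of 2.16 and 1.86 in neutrophils, and immediate early and heat shock genes have medians of 0.84 to 1.41 over the 5 cell types, with single genes in neutrophils from −0.10 to 3.82.

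Neutrophils varied among themselves in Retnlg and Mmp8, and the libraries filled this range differently. At 500 UMIs per cell the sum of both genes was 5 at the median on NCD and 1 in the pool. Cells with 0 to 3 of these UMIs made up 39.2% of NCD neutrophils and 75.5% of those of the pool, and cells with 10 or more made up 33.2% and 4.36%, the latter being 13 cells. Across the 2783 thinned NCD cells, Retnlg had a Spearman's rho of 0.47 with Mmp8, 0.56 with S100a8 and −0.23 with Il1b. These are descriptions across cells of 1 library, each thinned to 500 UMIs, so that the genes of a cell share a fixed total. In the 298 cells of the pool the values were 0.27, 0.40 and −0.03.

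The levels of other genes are given by this content, as a description, since Retnlg, S100a8 and S100a9 were used by the rule. S100a8 was higher where the content was higher. It stood at 8.73 (8.56 to 8.91) and 8.22 UMIs (7.85 to 8.61) per cell at 0 to 3, at 13.4 (13.1 to 13.6) and 14.7 (13.7 to 15.7) at 4 to 9, where the pool was higher, and at 18.0 (17.7 to 18.3) and 18.8 (16.5 to 21.3) at 10 or more. S100a9 at 0 to 3 stood at 8.79 (8.61 to 8.96) and 7.17 (6.82 to 7.53), lower in the pool. Lcn2 at 0 to 3 was at 0.464 (0.424 to 0.506) and 0.453 (0.370 to 0.550) UMIs. Chil1 was lower in the pool in the lower bins, at 0.164 (0.141 to 0.190) and 0.0889 (0.0543 to 0.137) at 0 to 3, and at 0.316 (0.278 to 0.358) and 0.117 (0.0469 to 0.240) at 4 to 9. Il1b was higher in the pool in each bin. It stood at 1.98 and 7.70 UMIs at 0 to 3, at 1.53 and 7.92 at 4 to 9, and at 0.992 (0.929 to 1.06) and 8.0 (6.54 to 9.69) at 10 or more. Cxcl2 was at 0.271 and 3.14 UMIs at 0 to 3 and at 0.142 and 1.39 at 10 or more.

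**Figure D5:**
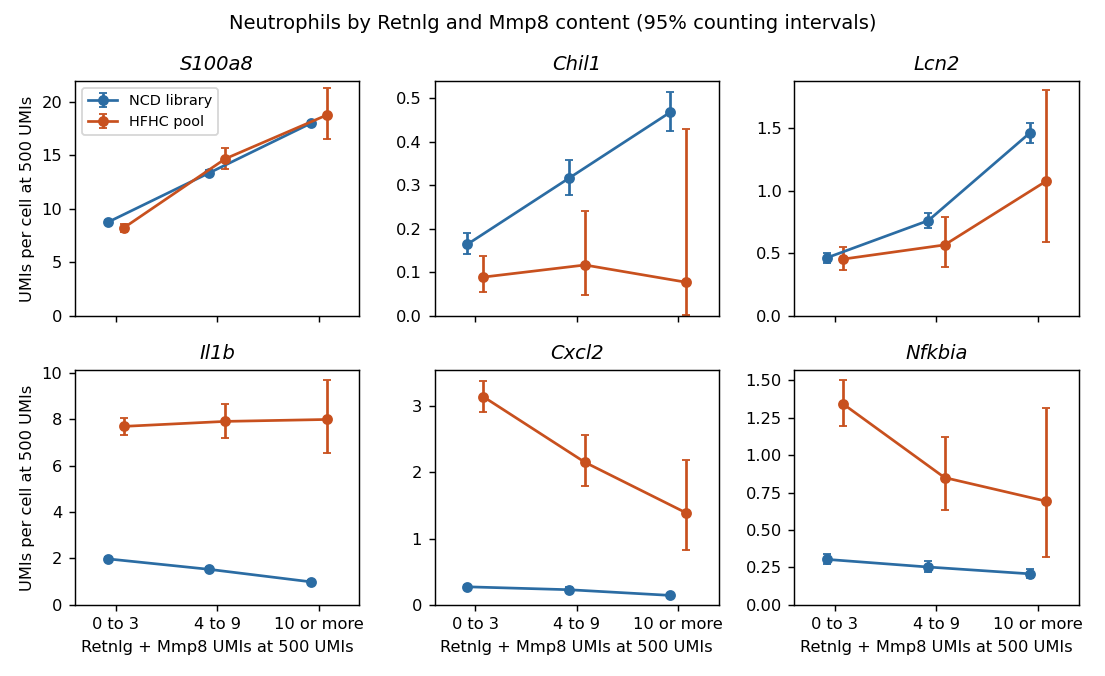
UMIs per cell of 6 genes in neutrophils thinned to 500 UMIs (y), by the sum of Retnlg and Mmp8 UMIs of the cell (x), in the NCD library (blue) and the HFHC pool (orange), with exact 95% counting intervals. S100a8 is above 8 UMIs per cell in both libraries in the first bin and near 18 in the last; Il1b, Cxcl2 and Nfkbia are higher in the pool in each bin, and the last bin of the pool holds 13 cells.

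Of 25 receptor and adhesion genes measured, 6 were higher and 0 lower, against 7.97% and 4.32% of all genes, with a median of −0.001. Cxcr2 is of this group and was used by the rule. Those higher were Cd274, which encodes PD-L1, Icam1, Cd14, Tlr2, Lilrb4a and Pirb. Cd274 stood at 22.4 CPM (17.6 to 28.2) and 228.7 CPM (195.9 to 265.4), and Cd14, which hands lipopolysaccharide to Tlr4, at 148.3 and 438.9 CPM. The receptors for formyl peptides, Fpr1 and Fpr2, had log2 ratios of −0.97 and −0.66, and Cxcr4, which holds neutrophils in the marrow, had 0.32. Ccr2, a chemokine receptor of the monocyte list, had 1.17. Among 18 genes of mature neutrophils, which include Cxcr2, Csf3r and Il1r2 of the rule, 5 were higher and 0 lower, beside the same shares of all genes: Ccrl2, Ptgs2, Hcar2, Clec4e and Trem1. Ptgs2, which makes prostaglandins, was 8.49-fold (7.84 to 9.21) higher, at 280.9 and 2386 CPM. Hcar2, a receptor for niacin and β-hydroxybutyrate, was at 100.4 and 624 CPM.

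Genes of interferon response were higher in part. Of 20 measured, 7 were higher and 0 lower, beside 7.97% and 4.32% of all genes, with a median of 0.58, and medians of −0.19 in classical monocytes and −0.31 in B cells. Among those higher were Gbp2, Ifit1, Ifi47, Oasl1, Ifit3 and Isg15, with log2 ratios of 2.31, 1.49, 1.36, 1.32, 1.20 and 1.12. Ifi47 had 0.55 with a mitochondrial limit of 10%. With cells thinned to 500 UMIs, only 2 of the interferon genes that could still be measured were higher. At 500 UMIs, 5.53% (4.71 to 6.45) of NCD neutrophils and 10.1% (6.90 to 14.1) of those of the pool held 3 or more UMIs of 10 such genes.

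The 6 subunits of the NADPH oxidase, which makes superoxide, lay between −0.65 (Rac2) and 0.71 (Ncf1), and none was called. None of 24 genes of glycolysis and glucose use was called, with a median of 0.24, and Eno1 was highest, at 0.98, and Hk3 lowest, at −0.64. Of 19 genes of cell death and survival, 3 were higher and 0 lower, beside 7.97% and 4.32% of all genes: Pmaip1, a BH3-only protein, at 1.66, Casp1 at 1.33 and Birc3 at 1.24. Mcl1, on which neutrophil survival depends, was at 2882 and 2830 CPM.

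Genes of alarmins and of extracellular traps were lower or between the limits. Of 17 measured, 6 were lower and 0 higher, where 4.32% and 7.97% of all genes were. The median was −0.80, and −0.002 in classical monocytes, −0.75 in KCs, −1.08 in B cells and −0.14 in T cells. S100a8 and S100a9 are among the 17 and were used by the rule, and both lay between the limits, at −0.43 and −0.59. In B cells 5 of the 10 genes measured were lower. Padi4, which citrullinates histones, was 3.65-fold (2.91 to 4.64) lower, at 381.3 CPM (360.4 to 403.1) and 104.4 CPM (82.7 to 130.2). S100a11 was at 9388 and 4199 CPM and Lyz2, lysozyme, at 8074 and 3343 CPM. Wfdc21, Gm5483 and Stfa1 were the others, Stfa1 with 125 and 4 UMIs.

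The 10 lowest ratios, with at least 10 UMIs in each library, were those of Mup7, Crispld2, Siglech, Rdh12, BC037034, Tsc22d3, Irf8, Zfyve26, Hist1h4i and C1qc. Crispld2, a secreted protein, was at 262.8 CPM (245.5 to 281) and 29.1 CPM (18.2 to 44.0), 9.04-fold (5.93 to 14.5) lower. Rdh12, a retinol dehydrogenase, was 6.57-fold (5.12 to 8.57) lower, at 556 and 84.6 CPM. Tsc22d3, a target of the glucocorticoid receptor, was 4.75-fold (4.02 to 5.66) lower in neutrophils and had log2 ratios of −1.54 in classical monocytes, −2.43 in KCs, −1.49 in B cells and −0.68 in T cells. Of 8 glucocorticoid response genes measured in neutrophils, 3 were lower (Tsc22d3, Fkbp5 and Tsc22d1) and 0 higher, against 4.32% and 7.97% of all genes, with a median of −0.30. The group had medians of −1.22 in classical monocytes, −1.30 in KCs, −0.90 in B cells and −0.92 in T cells. Mup7 is a hepatocyte gene and C1qc a KC gene, and Siglech and Irf8 mark plasmacytoid dendritic cells. In the pool 1 cell held 50% of the Siglech UMIs, of which there were 10, and 1 cell 46.4% of the Irf8 UMIs.

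Among genes under 1 in size in classical monocytes, B cells and T cells, the lowest in neutrophils included Pcsk7, Hist1h2bc, Cited2, Klf13, Snrk, Slc25a51, Sla, Gimap4 and Hacd2. Cited2, a transcriptional cofactor, was 2.7-fold (2.13 to 3.45) lower. Of 10 measured transcription factors of neutrophils, 1 was higher and 1 lower, beside 7.97% and 4.32% of all genes. Cebpa was the higher, at 1.35, and Cebpd the lower, at −1.10, but at −0.95 with cells thinned to 500 UMIs. Cebpb and Spi1 stood at −0.88 and −0.21.

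RNA of other cell types was present in neutrophils, at levels that differed by type. The 10 hepatocyte genes summed to 2777 CPM in NCD neutrophils and 4107 CPM in those of the pool. In the other kept cells they summed to 7461 and 15080 CPM, and none was at 0 in neutrophils. With no thinning, 14.9% and 30.9% of neutrophils held at least 3 UMIs of these genes. Kupffer genes summed to 509.9 and 249.9 CPM with Clec1b at 0 in the pool, monocyte genes, described above, to 1182 and 1704, B cell genes to 1035 and 1615 with Cd79a at 0 by the rule, T cell genes to 160 and 60.8 with Cd3e at 0 by the rule, and endothelial genes to 192.5 and 121.6 CPM with Ptprb at 0 by the rule. Each of these sums was below that of the other kept cells of its library. Igkc, an immunoglobulin chain, was at 82.6 and 534.1 CPM in neutrophils. Ear1, Epx, Prg2 and Prg3 of eosinophils and Prss34 of basophils were at 0 in both libraries, and Hdc, which neutrophils also express, gave nearly all of the sum of basophil and mast cell genes, at 1461 of 1475 CPM and 1511 of 1515 CPM. NK cell genes summed to 207.8 and 153.4 CPM, dendritic cell genes to 1927 and 1063, eosinophil genes to 49.4 and 75.4, against 87 and 62.5 in other cells, and platelet and red cell genes to 36.5 and 33.1. S100a8 was found in 3.37% of NCD B cells thinned to 500 UMIs against 0 in the pool. These B cells were chosen with fewer than 10 UMIs of S100a8 and S100a9, so that the shares are bounded by that choice. Neutrophils made up 11.93% and 1.52% of kept cells. Scrublet called 8.30% and 2.10% of kept cells doublets, and 8.40% and 6.71% of neutrophils. Free RNA and doublets cannot be told apart in these shares, and their part in the values above was not tested.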

How the data were processed

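Single-cell counts of 2 BD Rhapsody libraries of mouse liver NPCs were used. Per the file headers, the authors made the deposited counts with the BD Rhapsody WTA Analysis Pipeline 1.10.1 on GRCm38 with GENCODE M19 annotation. They hold error-corrected UMIs for each gene and called cell, and were not scaled. The submitters' processing notes also name Seurat. The aligner's settings are not given in the sources used here. All columns of cells belong to 1 of the 2 samples, so that 0 value columns were left unmapped.

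The members and gene lists were chosen with earlier results of these data known. UMIs were summed over cells and scaled to CPM. The ratio of a gene is the log2 of its CPM in the pool divided by that in the NCD library, each with 1 UMI added. It was computed where the neutrophils of the libraries held 100 or more UMIs between them, and was called at 1 in size. Counts over a list are descriptions, with no test. Intervals are exact Poisson or binomial 95% intervals. A count of 0 allows 3 UMIs. Shares of cells with a UMI were taken after each cell was thinned to 500 UMIs (seed 42), which left out 3 NCD cells. Where the text says so, they were taken with no thinning or at another depth. Classical monocytes, B cells, T cells and KCs were taken by marker UMIs: 401, 1250, 2593 and 2301 cells of the NCD library and 580, 851, 2557 and 339 of the pool. Doublets were kept; Scrublet (scanpy 1.11.5) called 8.40% and 6.71% of neutrophils, and these were taken out as an alternative.

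Named genes are those of the rule and of the lists, the 10 highest and 10 lowest ratios, the same among genes under 1 in size in classical monocytes, B cells and T cells, the 10 leading genes over other cells of each library, and the 10 highest and lowest of the NCD cells with early granule RNA. A few genes of these sets are not reported here. The ratio script was tested on simulated data. Alternatives were other limits of the cell filter and of the rule, 2 other scalings, thinned cells, a minimum of 20 UMIs, and depths of 1000 UMIs and no thinning for shares. Python 3.11.15, NumPy 2.4.6, SciPy 1.17.1 and pandas 2.3.3 were used.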

Additional observations from a re-analysis of the deposited data

How the results depend on the processing

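No paired analysis was possible because each diet has 1 library, and leaving out a replicate does not apply. Of the values of the main comparisons, 168 moved by less than counting error or within 1.5 times for counts, 35 moved by more and 1 reversed. Of 300 other named genes, 119 were at or past 1 in size and 102 of them stayed past it with the same sign under each alternative that gave them a value. Genes with too few UMIs after thinning had no value there. The minimum of 20 UMIs leaves the ratio of a gene unchanged, and setting the median ratio to 0 shifted each by 0.045 only. The counts of values that stayed are thus in part fixed in advance. The call was lost for 17. Among these, Cebpd, Il1rn, Cfp and Snrk stood at −0.95, 0.89, −0.57 and −0.91 with thinned cells, Ifi47, Nfkb2 and Tnfaip2 at 0.55, 0.92 and 0.96 with a mitochondrial limit of 10%, Plin2 and Tuba1b at 0.98 and −0.84 with a minimum of 20 S100a8 and S100a9 UMIs, and Pirb at 0.99 without Scrublet doublets. The share of neutrophils in the NCD library was 14.67% with a mitochondrial limit of 10%, 10.54% with a minimum of 20 S100a8 and S100a9 UMIs and 13% with cells thinned before the rule, where the pool stood at 1.273%. With a minimum of 20 UMIs for a gene, 1018 genes were higher and 503 lower, and 5 glucocorticoid genes were lower. With cells thinned to 500 UMIs fewer genes reach the minimum: 136 of 2249 genes were higher and 130 lower, so that the excess of higher genes was smaller, and 5 of 8 cytokine, 6 of 8 NF-κB, 2 of 14 interferon and 1 of 7 secondary granule genes were higher. Under that thinning the log2 ratios were −1.31 for Chil1, 2.86 for Ngp, −2.23 for Mmp8 and −0.53 for Cxcr2, which stood at −0.58 with the mitochondrial limit of 10%. Without the cells with 10 or more Ngp, Camp and Ltf UMIs, Ngp reversed to −5.40, a value that depends on the added UMI since the pool then held none, Mmp8 stood at −2.31, and 0 secondary granule genes were higher; Camp and Ltf then had too few UMIs for a ratio, there and after thinning. Shares of cells with a UMI follow the depth. At 1000 UMIs and with no thinning, Chil1 was found in 38.67% and 38.51% of NCD neutrophils and 11.49% and 16.78% of those of the pool, Mmp8 in 71.65% and 69.31% and in 33.11% and 46.31%, and Cxcr2 in 95.58% and 96.84% and in 85.47% and 94.97%. Ngp was found in 4.29% and 4.271% of NCD cells, Ltf at 1000 UMIs in 0.2681%, and 0.5362% held 3 or more UMIs of Ngp, Camp and Ltf. With 298 neutrophils, a gene with no UMI in the pool may stand at up to 3.97 CPM. Cells left out with the Ngp, Camp and Ltf limit, and thinning before the rule, were chosen after seeing the data.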

Other observations

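Genes of lipid handling were measured for 12 of 23 listed, of which 4 were higher and 1 lower in the pool, beside 7.97% and 4.32% of all genes, with a median of −0.03. Abca1, which exports cholesterol, was at 17.5 and 59.5 CPM, Lta4h, which makes leukotriene B4, had a log2 ratio of 1.38, Cpt1a, of mitochondrial fatty acid uptake, was at 73.1 and 173.2 CPM, and Plin2, a lipid droplet coat, had 1.07. Lpl was lower, with 152 and 10 UMIs. Alox5ap, needed for leukotriene synthesis, was at 2330 CPM (2278 to 2384) and 1588 CPM (1499 to 1680).

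Ribosomal protein genes had a median of 0.27 over 25 genes, 4 of them higher and 0 lower, beside 7.97% and 4.32% of all genes. Rps19 was highest, with 64 and 105 UMIs and a log2 ratio of 2.81, and was between 2.44 and 2.71 in classical monocytes, KCs, B cells and T cells, and Rpl13 lowest, at −0.996.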
